A study of Mus musculus with 30 samples.

Results

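The genes described here carry dietary fat through an absorptive cell: 10 named genes for fatty acid uptake, triglyceride synthesis, lipoprotein assembly and lipid droplet coating, out of 46078 genes counted in mouse colon. They were chosen by name, each name matched 1 gene identifier in the deposited tables, and the rule itself uses no measured value. Earlier results of these data were known when they were chosen. The paper had named Cd36 among the genes differing between the sexes on the control diet. It had listed Dgat2 among the genes regulated by the high-fat diet in females. Distal colon tissue of C57BL/6J mice was profiled by RNA-seq in 30 libraries, with 6 biological replicates in each of 5 groups. CD F and CD M were females and males on a control diet, HFD F and HFD M were females and males on a high-fat diet, and these 4 groups received vehicle. HFD+E2 M were males on the high-fat diet that received estradiol (E2), the main ovarian estrogen, at 0.5 mg/kg body weight. The diets lasted 13 weeks, and vehicle or E2 was given in 9 intraperitoneal injections over the last 3 weeks. The females had intact ovaries, and no female received E2, so the E2 comparison exists in males only.

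In an enterocyte, the absorptive cell of the gut, fatty acids enter with the help of the scavenger receptor CD36 and are carried through the cytosol by the fatty acid binding proteins FABP1 and FABP2. Monoacylglycerol acyltransferase (Mogat2) and the diacylglycerol acyltransferases (Dgat1, Dgat2) rebuild them into triglyceride. The triglyceride is either loaded by the microsomal transfer protein (Mttp) onto apolipoprotein B (Apob) and secreted in chylomicrons, or stored in cytosolic droplets coated by perilipins (Plin2, Plin3). This route is best known from the small intestine, where most dietary fat is absorbed. The colon receives little fat, and CD36 is also made by endothelial cells, macrophages, adipocytes and muscle.

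The total of gene counts per library ranged from 8667177 to 17243712, and mitochondrial genes took between 26.1% and 37.99% of it. The tissue carried its label: the 10 colonocyte markers summed to between 1377 and 2810 TPM (a level scaled to gene length and library size) in each library, and the posterior gene Hoxb13 was at or above 92.0 TPM in each. The intestinal transcription factor Cdx2 was at most 1.09 TPM, with 129 counts in all, while Hnf4a ran from 134 to 204 TPM. The reason for the low Cdx2 was not tested. The 8 markers of small intestinal absorptive cells summed to between 32.0 and 72.4 TPM. Among them Sis, the sucrase of their brush border, was at most 0.114 TPM, Apoa4, a chylomicron apolipoprotein, at most 0.137 TPM, Apoc3 at most 0.262 TPM, Alpi at most 0.347 TPM and Lct at most 1.26 TPM, while the glucose transporter Slc5a1 (23.8 to 55.2 TPM), the retinol carrier Rbp2 (6.39 to 20.4 TPM) and Mme (0.723 to 4.32 TPM) were counted in each library. In 6 libraries (HFD F replicates 1, 3, 4 and 5, HFD M replicates 2 and 4) the 15 markers of stratified squamous epithelium summed to more than 100 TPM, from 135 to 1476, against at most 48.8 TPM in the other 24, and skeletal muscle markers were also high in some of them, up to 489 TPM in HFD M replicate 2. The 9 smooth muscle markers summed to a median of 3019 TPM in CD F (range 2532 to 3930) and 5294 TPM in CD M (range 3988 to 6667), with no overlap between these groups. Both features are given beside the results they moved with. In such bulk tissue, fewer cells of a type and less RNA per cell cannot be told apart.

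The levels of the 10 genes ran from abundant to not counted at all. Plin2 and Apob were the most abundant, with means of 60.5 ± 13.6 and 54.1 ± 15.2 TPM (SD, n = 30 libraries). Plin3 stood at 26.1 ± 3.87 TPM, Dgat1 at 12.6 ± 4.37 TPM, Cd36 at 11.9 ± 4.57 TPM and Dgat2 at 7.22 ± 3.24 TPM. Mttp reached 1.39 ± 0.491 TPM, far under its partner Apob on this per-length scale. Fabp2 stood at 3.96 ± 1.80 TPM from 14 to 63 counts per library. The other 2 genes were barely counted or not counted: Mogat2 had from 0 to 7 counts per library and 58 in all, and Fabp1 was listed at 0 counts and 0 TPM in 30 of 30 libraries.

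**Figure D1:**
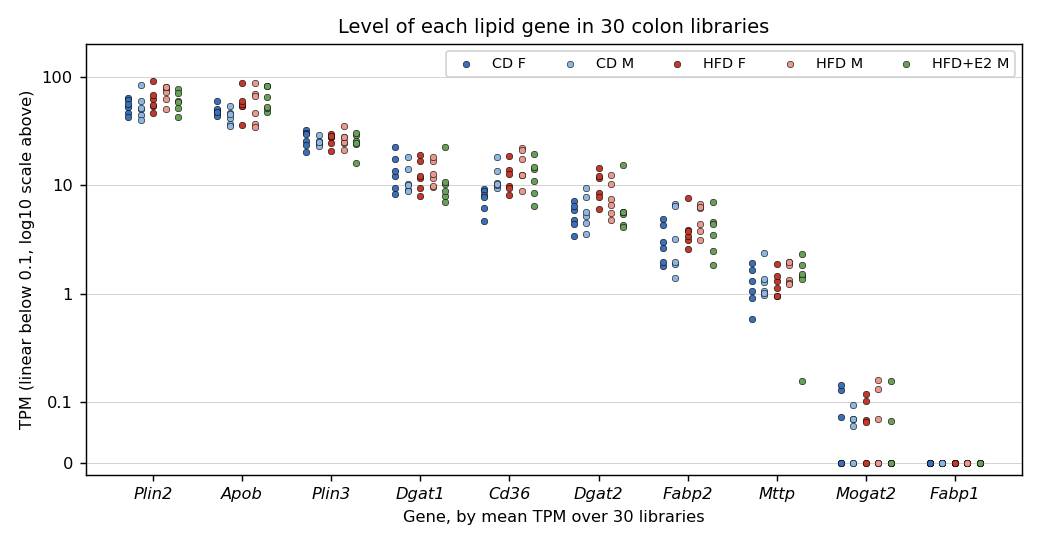
TPM of each of the 10 genes (x axis, ordered by mean) in each of the 30 libraries, coloured by group; the y axis is linear below 0.1 TPM and log10 above. Plin2 and Apob lie near 60.5 and 54.1 TPM on average, Mttp near 1.39 TPM, Mogat2 at or below 0.160 TPM, and Fabp1 at 0 in every library.

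Promoter sequence is shown for Cd36, whose level differed between the sexes on the control diet, for Plin2, which varied with Cd36 from library to library, and for Fabp1, which had no counts, so that their starts can be compared. The sequences are from RefSeq on GRCm38.p6, hold the 250 bases before the RefSeq start and run 5′ to 3′ on the strand of the gene. Capitals mark TGACCT, the reverse strand of the nuclear receptor motif AGGTCA, and TATAAA, the TATA box. The RefSeq starts of Cd36 and Fabp1 lie inside the gene spans given below.
Cd36, chr5:17835897-17836146, minus strand: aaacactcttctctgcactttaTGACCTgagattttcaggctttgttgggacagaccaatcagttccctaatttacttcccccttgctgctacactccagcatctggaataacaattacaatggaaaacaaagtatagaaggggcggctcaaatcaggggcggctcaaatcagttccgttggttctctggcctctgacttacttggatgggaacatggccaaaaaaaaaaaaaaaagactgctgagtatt
Plin2, chr4:86670060-86670309, minus strand: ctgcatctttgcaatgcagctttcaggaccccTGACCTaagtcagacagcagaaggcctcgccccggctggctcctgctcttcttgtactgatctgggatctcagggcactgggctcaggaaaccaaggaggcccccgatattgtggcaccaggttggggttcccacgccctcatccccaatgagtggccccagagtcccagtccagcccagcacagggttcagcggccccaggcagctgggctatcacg
Fabp1, chr6:71199629-71199878, plus strand: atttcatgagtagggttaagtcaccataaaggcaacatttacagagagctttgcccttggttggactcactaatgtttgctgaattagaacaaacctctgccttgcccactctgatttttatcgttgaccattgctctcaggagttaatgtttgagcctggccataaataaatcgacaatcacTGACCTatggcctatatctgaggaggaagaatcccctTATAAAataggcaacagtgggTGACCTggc

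TGACCT began 228 bases before the start in Cd36, 218 bases before it in Plin2, and at 67 and 9 bases before it in Fabp1, which also held TATAAA 30 bases before it. AGGTCA or TGACCT was present in 14.02% of 32851 promoter windows of this length, and TATAAA or its reverse TTTATA in 12.4%. RefSeq windows were found for 7 of the 10 genes. The 3 shown above are the only ones of the 7 that held AGGTCA or TGACCT, and 2 of the 7 (Fabp1 and Apob) held TATAAA. Neither was present in the windows of Fabp2, Mttp and Plin3, and Mogat2, Dgat1 and Dgat2 were not matched. A match of 6 letters is a description of the sequence only.

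Cd36 (chromosome 5, 17781690 to 17888801, mm10), the uptake receptor, was lower in females than in males on the control diet. Its lowest, median and highest values were 4.72, 7.98 and 9.14 TPM in CD F, and 9.47, 10.4 and 18.3 TPM in CD M. The highest female lay below the lowest male, and the groups did not overlap. The log2 fold change of CD F against CD M was -0.62 ± 0.16 (SE, n = 6 per group; 0.651-fold), with an edgeR quasi-likelihood p of 0.00102 and a Benjamini-Hochberg adjusted p over all genes tested of 0.0407. An exact permutation test on log2 CPM (counts scaled to library size) gave 0.00216, the smallest p that 6 against 6 allows. The adjusted p was close to 0.05, and rose above it when any of 7 libraries was left out (CD F replicates 3, 5 and 6, CD M replicates 1, 2, 3 and 5), reaching at most 0.0993, while the log2 fold change stayed between -0.68 and -0.50. Without CD M replicate 1, the highest male, it was -0.50.

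Markers of other cell types also moved between CD F and CD M, where the Cd36 result stands. All 9 smooth muscle markers were lower in CD F at the study threshold (an unadjusted edgeR p under 0.05 and a log2 fold change beyond 0.4) and 5 of 9 at an adjusted p under 0.05. At the study threshold 3 of 9 endothelial markers were lower, 1 of them (Cdh5, -0.63, edgeR adjusted p = 0.0286) also at the adjusted threshold. So were 3 of 10 macrophage markers, with 1 higher, 2 of the 3 tested skeletal muscle markers (Ckm at -0.89 and Tnnt3 at -2.28) and 3 of 9 colonocyte markers (Car1, Car4 and Slc26a3). Higher in CD F at the study threshold were 4 of 7 B cell markers and 3 of 6 goblet cell markers. By adjusted p, 2 of 6 goblet cell markers were higher and 0 of 7 B cell markers were called. The 9 endothelial markers summed to 24.5 to 43.3 TPM in CD F and 33.6 to 60.1 TPM in CD M. The 8 skeletal muscle markers summed to 9.42 to 22.6 TPM in CD F and 17.1 to 134.9 TPM in CD M. The 10 adipocyte markers overlapped, with sums of 41.6 to 93.9 TPM in CD F and 31.7 to 94.7 TPM in CD M. The smooth muscle sums did not overlap between these groups, so a fit with that score separates it poorly from sex. Over all genes, that covariate moved the calls at the study threshold from 439 higher and 927 lower to 1092 and 988. With the smooth muscle marker score as a covariate, the log2 fold change of Cd36 was -1.02 (edgeR adjusted p = 0.0132). With the adipocyte score it was -0.63 (adjusted p = 0.0773), and over all alternatives that kept every library in the comparison the adjusted p ranged from 0.0113 to 0.0980. The part of endothelial cells, macrophages and skeletal muscle in the Cd36 difference was not tested.

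On the high-fat diet the female and male values of Cd36 overlapped. HFD F had 8.14, 11.2 and 18.5 TPM (lowest, median, highest) and HFD M had 8.85, 15.0 and 22.1 TPM. The log2 fold change of HFD F against HFD M was -0.36 ± 0.19 (95% interval -0.76 to 0.05, edgeR adjusted p = 0.872), which does not pass either threshold and does not show that the sexes were alike. It was -0.46 without HFD F replicate 1 and -0.44 without HFD M replicate 5, past the study threshold in both. HFD F was above CD F by 0.60 ± 0.17 on the log2 scale (1.51-fold, edgeR adjusted p = 0.496, exact permutation p on log2 CPM = 0.0216), past the study threshold but not past the adjusted one. Squamous markers moved with this comparison too, with a median sum of 27.6 TPM in CD F and 860 TPM in HFD F, and skeletal muscle markers reached 212 TPM in HFD F against at most 22.6 TPM in CD F. Without the 4 HFD F libraries with squamous markers the Cd36 change was 0.56 (replicates 2 and 6 at 13.7 and 9.38 TPM), and with the squamous score as a covariate it was 0.54, past the study threshold in both. The part of skeletal muscle was not tested. In males, HFD against CD gave 0.33 ± 0.18 (95% interval -0.05 to 0.71, adjusted p = 0.826, edgeR), and 0.46 without CD M replicate 1 and 0.41 without HFD M replicate 5, past the study threshold in both. The 2 diet changes were not shown to differ, since the sex by diet interaction was 0.26 ± 0.26 (adjusted p = 0.850, edgeR), or 0.61 with the smooth muscle score as a covariate, past the study threshold. E2 gave -0.14 ± 0.19 against vehicle (95% interval -0.55 to 0.27, adjusted p = 0.783, edgeR), and HFD+E2 M ran from 6.38 to 19.5 TPM around a median of 12.6. CD F was the only group set apart in the order of group means: HFD F exceeded it by 4.55 TPM, more than the larger SD of 3.80 TPM, though the ranges overlapped, while HFD M, HFD+E2 M, CD M and HFD F, in that order, each differed from the next by less than the larger SD.

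**Figure D2:**
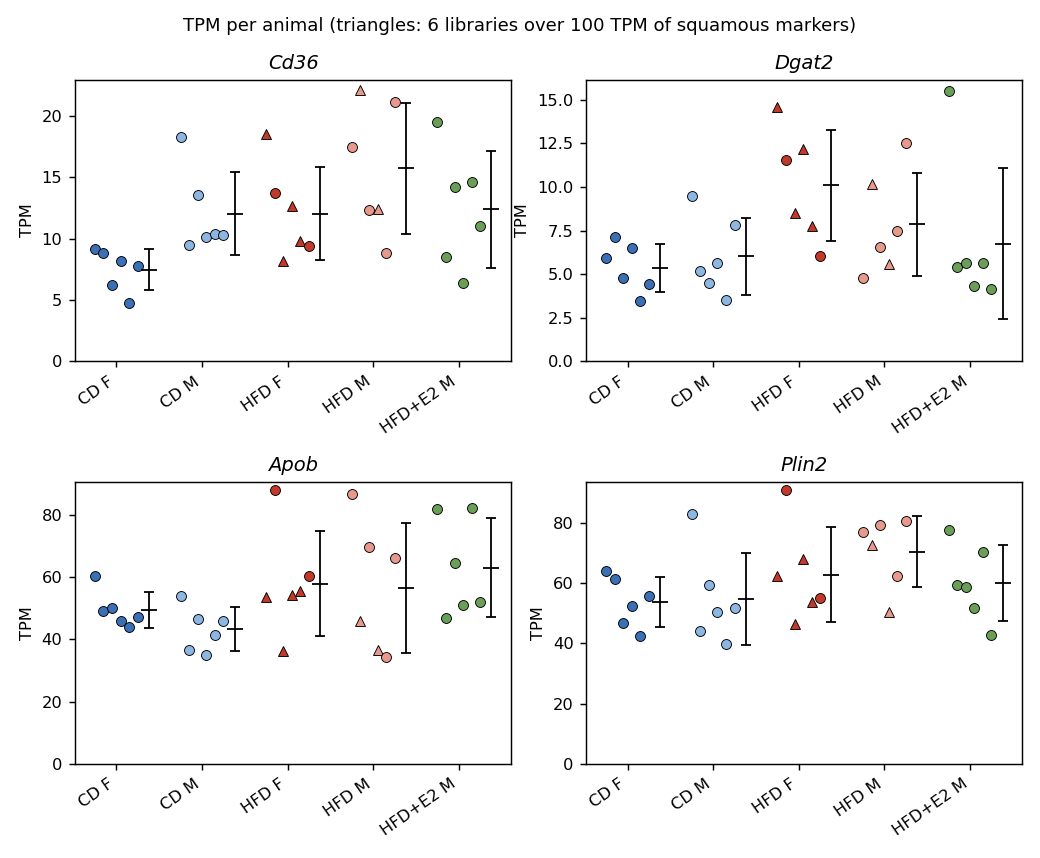
TPM of Cd36, Dgat2, Apob and Plin2 in every library (points) by group (x axis), with the group mean and SD (bars, n = 6); triangles are the 6 libraries with more than 100 TPM of squamous markers. In Cd36 the 6 CD F values, up to 9.14 TPM, lie below all CD M values, which start at 9.47 TPM; in Dgat2 HFD+E2 M replicate 1 lies at 15.5 TPM, far from the other 5 of its group.

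The cytosolic carriers gave no called difference. Fabp1 (chromosome 6, 71199827 to 71205023), the liver-type binding protein, had 0 counts in a total of 347487078 gene counts, which allows at most 0.00863 CPM over all libraries together (3 counts, counting error only). None of its 503 windows of 51 bases is shared with another gene, and 15997 genes of the table were at 0 in all libraries. Fabp2 (chromosome 3, 122895072 to 122899506), the intestinal-type carrier, had group medians of 2.81 (CD F), 2.56 (CD M), 3.58 (HFD F), 5.26 (HFD M) and 3.902 TPM (HFD+E2 M). Its groups overlapped widely: CD M alone ran from 1.39 to 6.65 TPM. The fitted log2 fold changes lay between -0.23 and 0.43, and the lowest unadjusted edgeR p was 0.170, for HFD M against CD M (0.43 ± 0.30, 95% interval -0.20 to 1.07). All 6 HFD M values of log2 CPM were above the CD M median. Single libraries moved these values: without CD M replicate 4 the change of HFD M against CD M was 0.65, and without HFD F replicate 2, the highest of its group at 7.67 TPM, HFD F against HFD M went from -0.23 to -0.47, past the study threshold in both. Without the 6 libraries with squamous markers HFD F against HFD M was 0.26, the other way, and HFD F against CD F went from 0.32 to 0.81. Fabp2 lies within the antisense gene 4933405D12Rik, and the strand setting of the counting is not given in the sources used here, so reads of the pair may not be separated.

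Among the triglyceride synthesis genes, Dgat2 was higher on the high-fat diet in females at the study threshold. Dgat2 (chromosome 7, 99153663 to 99182713), the acyltransferase tied to droplet growth, had 3.44, 5.35 and 7.10 TPM (lowest, median, highest) in CD F and 6.03, 10.1 and 14.6 TPM in HFD F. The groups met only at their ends, and all 6 HFD F values of log2 CPM were above the CD F median. The log2 fold change was 0.78 ± 0.17 (n = 6 per group; 1.72-fold, 95% interval 0.42 to 1.15). It passed the study threshold with an unadjusted edgeR p of 0.000306, and the adjusted p was 0.383 over 15061 genes, so it was not called at the adjusted threshold by edgeR. DESeq2, run on the same counts, gave 0.77 with an adjusted p of 0.00542. It called 214 genes in this comparison at an adjusted p under 0.05, where edgeR called 3. Over the alternatives that kept every library in the comparison or removed those with squamous markers, the adjusted p ran from 0.00542 to 0.9999 and the log2 fold change from 0.56 to 0.88, and with each library left out in turn the log2 fold change ran from 0.70 to 0.87, past the study threshold in 12 of 12 cases.

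Squamous markers moved with this Dgat2 result, since 4 of the 6 HFD F libraries held them. Without those libraries, HFD F replicates 2 and 6 had 11.6 and 6.03 TPM of Dgat2, and the log2 fold change against CD F was 0.57, past the study threshold (edgeR adjusted p = 0.9998). With the squamous marker score as a covariate it was 0.56, also past it (adjusted p = 0.9999). Across all libraries Dgat2 had a median of 9.36 TPM (5.56 to 14.6) in the 6 libraries with squamous markers. In the other 24 the median was 5.64 TPM (3.44 to 15.5), with the highest value in HFD+E2 M replicate 1. In males Dgat2 was at a median of 5.43 TPM in CD M and 7.004 TPM in HFD M, with a log2 fold change of 0.37 ± 0.25 (95% interval -0.17 to 0.91, edgeR adjusted p = 0.849), and the sexes were not shown to differ in it (interaction 0.41 ± 0.32, adjusted p = 0.800). HFD F against HFD M gave 0.38 ± 0.23 (adjusted p = 0.872). The male diet change was 0.50 without HFD M replicate 1, and HFD F against HFD M was 0.54 without HFD M replicate 6, past the study threshold in both. In HFD+E2 M, 5 libraries lay between 4.12 and 5.62 TPM and replicate 1 at 15.5 TPM, and E2 against vehicle gave -0.11 ± 0.30 (95% interval -0.75 to 0.53, adjusted p = 0.901). That value rested on single libraries: it was -0.44 without HFD+E2 M replicate 1 (edgeR adjusted p = 0.356) and 0.0584 without HFD M replicate 6, and it passed neither threshold with any library left out.

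Dgat1 and Mogat2 passed no threshold with all libraries in the comparison and no covariate. Dgat1 (chromosome 15, 76502015 to 76511951), the acyltransferase that finishes triglyceride in absorptive cells, had group medians from 9.53 TPM (HFD+E2 M) to 12.8 TPM (CD F), and the libraries ran from 7.02 to 22.5 TPM with all groups overlapping. Its log2 fold changes between 2 groups ran from -0.27 ± 0.20 (E2 against vehicle, adjusted p = 0.599) to 0.29 ± 0.20 (CD F against CD M, adjusted p = 0.542, edgeR), and the interaction was -0.31 ± 0.29 (adjusted p = 0.833). Without CD M replicate 1, CD F against CD M was 0.43, past the study threshold. With the smooth muscle score as a covariate it was -0.38, and the sums of those markers did not overlap between these groups. The E2 value was moved by 1 library: without HFD+E2 M replicate 1, which had 22.4 TPM, it was -0.49 (adjusted p = 0.170), past the study threshold. With the adipocyte score as a covariate it was -0.42, also past the study threshold. Mogat2 (chromosome 7, 99219084 to 99238619), which builds diacylglycerol from absorbed monoacylglycerol, lies 36371 bases from Dgat2. It was under the filter on low counts, and edgeR without that filter gave unadjusted p from 0.369 to 0.882 over the 6 comparisons. At 0 to 7 counts per library a difference was not detectable at this depth. It also overlaps the antisense gene Gm45012.

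Apob (chromosome 12, 7977648 to 8016835), the structural protein of chylomicrons, was counted 3923 to 12928 times per library. Lowest, median and highest values were 43.9, 48.2 and 60.3 TPM in CD F and 34.98, 43.6 and 53.9 TPM in CD M. Females tended to the upper end but the groups overlapped. The log2 fold change of CD F against CD M was 0.30 ± 0.09 (95% interval 0.11 to 0.50, exact permutation p on log2 CPM = 0.00433), with an adjusted p of 0.0978 by edgeR and 0.0382 by DESeq2 (log2 fold change 0.31), and 0.0310 to 0.564 over the alternatives. It was below the fold of the study threshold. Of the epithelial markers in the same comparison, 3 of 6 goblet cell genes were higher in CD F at the study threshold and 3 of 9 colonocyte genes lower. By adjusted p, 2 of 6 goblet cell genes were higher. The part of these cells in the Apob values was not tested. The Apob change was the reverse of Cd36 in sign. With the smooth muscle score as a covariate it was 0.14 (adjusted p = 0.564), and the sums of those markers did not overlap between these groups.

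On the high-fat diet Apob spread widely. HFD F had 36.1, 54.9 and 87.9 TPM, HFD M had 34.3, 56.05 and 86.6 TPM, and HFD+E2 M had 46.9, 58.3 and 82.1 TPM (lowest, median, highest). The fitted diet changes were 0.13 ± 0.15 in females (adjusted p = 0.9994) and 0.32 ± 0.16 in males (adjusted p = 0.8255), and E2 against vehicle gave 0.33 ± 0.17 (95% interval -0.03 to 0.70, adjusted p = 0.506, edgeR). The male diet change was 0.40 without HFD M replicate 4, and the E2 change was 0.45 without HFD M replicate 1 and 0.41 without HFD M replicate 3, past the study threshold in each. All 6 HFD+E2 M values of log2 CPM lay above the HFD M median. Libraries with squamous markers were not the high ones: Apob was at most 55.7 TPM in those 6 and reached 87.9 TPM in the other 24. Without them the diet change was 0.48 in females (2 HFD F libraries left) and 0.48 in males (4 HFD M libraries left), past the study threshold in both, with adjusted p of 0.9998 and 0.6385.

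Mttp (chromosome 3, 138089854 to 138144968), the transfer protein that lipidates apolipoprotein B, had 35 to 89 counts per library. Group medians lay between 1.18 TPM (CD M) and 1.59 TPM (HFD M), and log2 fold changes between -0.12 (interaction) and 0.13 ± 0.18 (HFD M against CD M), with the lowest unadjusted edgeR p at 0.486. In HFD+E2 M replicate 2 the deposited TPM was 0.158 while 39 counts were recorded, a TPM per CPM of 0.0412 against a median of 0.280 over the 30 libraries. The tests on counts are not touched by that value. Of the 51-base windows of Mttp, 7.18% are shared with Gm43691 or Trmt10a, which overlap it on the other strand.

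The droplet coats passed neither threshold in any of the 6 comparisons. Plin2 (chromosome 4, 86648386 to 86670060), the perilipin that marks droplets in most cells, had lowest, median and highest values of 42.5, 54.2 and 64.0 TPM in CD F, 39.9, 51.2 and 83.2 TPM in CD M, 46.5, 58.9 and 91.1 TPM in HFD F, 50.5, 74.9 and 80.9 TPM in HFD M, and 42.8, 59.1 and 77.8 TPM in HFD+E2 M. HFD M had the highest median. Its range lay within those of CD M and HFD F, and overlapped those of CD F and HFD+E2 M. HFD M against CD M gave 0.32 ± 0.14 (95% interval 0.03 to 0.61, adjusted p = 0.8225, edgeR), under the fold of the study threshold. Without CD M replicate 1, the highest of CD M, it was 0.45, past the study threshold (adjusted p = 0.343). In females the diet change was 0.09 ± 0.12 (adjusted p = 0.9994), and the sexes were not shown to differ in it (interaction -0.24 ± 0.19, adjusted p = 0.806). Plin3 (chromosome 17, 56278962 to 56290511), a perilipin of small and newly formed droplets, had group means between 24.8 ± 4.88 TPM (HFD+E2 M, SD) and 26.9 ± 4.60 TPM (CD F). Its log2 fold changes lay between -0.15 ± 0.17 and 0.18 ± 0.10, the latter for CD F against CD M (95% interval -0.02 to 0.39, adjusted p = 0.414).

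Over the 10 genes, 8 passed the filter on low counts and were tested in each comparison, and Fabp1 and Mogat2 were not. CD F against CD M called 1 of the 8 by adjusted p (Cd36, lower), where 2.92% of all genes tested were called, and 1 at the study threshold, where 9.15% were. The median log2 fold change of the 8 was 0.10, against 0.01 for all genes tested. HFD F against HFD M called 0 by either rule (all genes: 0.0988% and 3.09%). It had 0 at an unadjusted p under 0.05 by edgeR (773 of 15179 genes) and 0 adjusted by DESeq2 (50 of 27986 genes). HFD F against CD F called 0 by adjusted p (0.0199% of all genes). At the study threshold it called 2, Dgat2 and Cd36, both higher (3.67% of all genes). By edgeR 2 were at an unadjusted p under 0.05, as were 856 of the 15061 genes tested. DESeq2 called 1 by adjusted p, and 214 of 27955 genes. The medians were 0.11 and 0.00.

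HFD M against CD M called 0 of the 8 by adjusted p and 0 at the study threshold, where 0% and 2.9% of all genes were called. Plin2 was the 1 gene at an unadjusted p under 0.05 by edgeR (904 of 14991 genes), and DESeq2 called 0 (25 of 27703 genes). All 8 tested genes had a positive log2 fold change, from 0.05 (Plin3) to 0.43 (Fabp2), with a median of 0.32 against -0.01 for all genes. Dgat1 and Mttp were below 0 with the smooth muscle score as a covariate, and Plin3 with the adipocyte score and without HFD M replicate 5 or 6. HFD+E2 M against HFD M called 0 by either rule (all genes: 0.00666% and 5.87%). It had 0 at an unadjusted p under 0.05 by edgeR (1535 of 15010 genes) and 0 adjusted by DESeq2 (50 of 27435 genes). In it 3 of 8 log2 fold changes were positive (median -0.07 against 0.00). HFD M is the control of one comparison and the treated group of the other. The interaction called 0 by either rule (all genes: 0% and 5.18%), with values from -0.31 (Dgat1) to 0.41 (Dgat2). It had 0 at an unadjusted p under 0.05 by edgeR (1066 of 15800 genes) and 0 adjusted by DESeq2 (3 of 29614 genes).

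**Figure D3:**
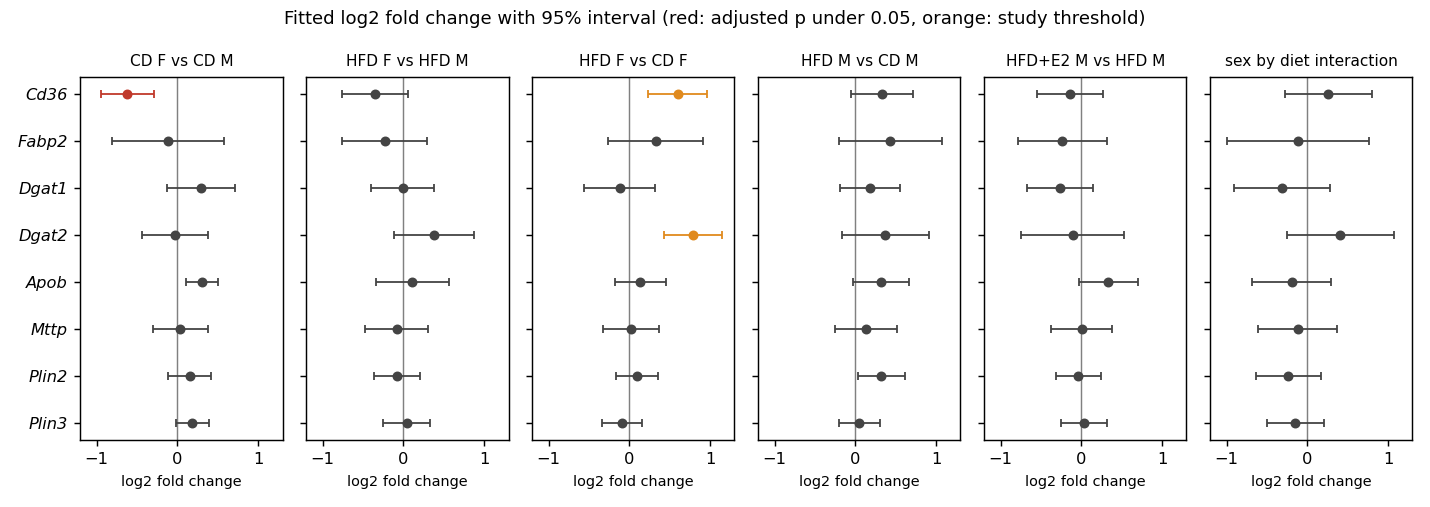
Fitted log2 fold change (x axis) of the 8 tested genes (y axis) in the 6 comparisons, with 95% intervals from edgeR (bars, 6 libraries per group); red marks an adjusted p under 0.05 and orange the study threshold. Cd36 at -0.62 in CD F against CD M is the 1 red point, and Dgat2 at 0.78 and Cd36 at 0.60 in HFD F against CD F are the 2 orange ones.

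The other genes of the same routes were taken from 7 lists with 87 genes that are not among the 10, of which 70 to 75 were tested per comparison. In CD F against CD M, 1 of 70 was lower at an adjusted p under 0.05, where 2.92% of all genes tested were called. It was Mgll, the lipase that releases the last fatty acid from monoacylglycerol. Mgll was at 6.92 ± 1.37 TPM in CD F and 10.6 ± 1.54 TPM in CD M (log2 fold change -0.57 ± 0.10, adjusted p = 0.00464, edgeR). Its highest female, 8.73 TPM, was above its lowest male, 8.46 TPM. Plin4, a perilipin of muscle and fat droplets, was lower (-0.41 ± 0.15) and Acot1, a cytosolic acyl-CoA thioesterase, higher (0.61 ± 0.25) at the study threshold. With Mgll that was a share of 4.29%, where 9.15% of all genes were called. The smooth muscle marker sums did not overlap between these groups, with medians of 3019 TPM in CD F and 5294 TPM in CD M. The part of muscle in the Mgll and Plin4 values was not tested. The median log2 fold change of the 70 was -0.01. None of the 87 passed an adjusted p under 0.05 in another comparison.

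In HFD F against CD F, 5 of 71 rose at the study threshold and 0 fell, a share of 7.04%, where 3.67% of all genes were called (444 higher and 109 lower). They were Fabp5, a carrier of epidermis and other tissues, Angptl4, a fasting-induced inhibitor of lipoprotein lipase, Mgll, Pdk4 and Plin4. The largest was Fabp5, at 37.9 ± 33.1 TPM in HFD F and 4.45 ± 1.54 TPM in CD F (3.57 ± 0.83). Angptl4 went from 0.745 ± 0.560 to 2.13 ± 1.38 TPM (1.48 ± 0.37, adjusted p = 0.412, edgeR).

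Without the 4 HFD F libraries with squamous markers, 0 of these 5 genes passed the study threshold. In Fabp5, HFD F replicates 1, 3, 4 and 5 had 75.0, 68.0, 60.4 and 11.2 TPM, and replicates 2 and 6 had 6.80 and 6.12 TPM. Over all groups Fabp5 did not exceed 6.80 TPM in the 24 libraries without these markers. Mgll had 13.0, 10.8, 8.499 and 10.5 TPM in the 4 libraries with squamous markers, and 7.17 and 5.06 TPM in replicates 2 and 6, beside a CD F mean of 6.92 TPM. Replicates 2 and 6 also lay near the CD F mean in Plin4 (7.32 and 5.70 against 6.72 TPM) and Pdk4 (2.28 and 1.76 against 1.78 TPM). With those 2 HFD F libraries alone the log2 fold changes were 0.40 (Fabp5), 0.68 (Angptl4), -0.14 (Mgll), 0.11 (Pdk4) and -0.15 (Plin4). Of 74 genes tested that way, 4 others rose (Creb3l3, Ces2e, Apobec1 and Acsl4) and Srebf1 fell, where 2.36% of all genes were called (189 higher and 184 lower).

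In HFD M against CD M, 5 of 71 rose at the study threshold and 0 fell, where 2.9% of all genes were called (188 higher and 246 lower). They were Creb3l3, a liver and gut transcription factor of triglyceride metabolism, Ces2e, a carboxylesterase of the gut, Angptl4, Acot1 and Fabp5. Creb3l3 went from 0.331 ± 0.259 to 1.05 ± 0.270 TPM (1.32 ± 0.32, adjusted p = 0.421) and Ces2e from 13.1 ± 4.64 to 22.4 ± 7.37 TPM (0.78 ± 0.21, adjusted p = 0.604). Fabp5 rested on 1 library: HFD M replicate 2, which held squamous markers, had 46.0 TPM, and the other 5 had 2.16 to 5.31 TPM, within the CD M range of 0.811 to 5.91 TPM. The same library was the highest of its group in Acot1, at 2.38 TPM. Without HFD M replicates 2 and 4, Fabp5 was at 0.068 and Acot1 at 0.53, neither past the study threshold, while Creb3l3 (1.45), Ces2e (0.82) and Angptl4 (1.01) passed it and Ces2c (0.48) was added. Of 74 genes tested that way, 4 rose and 0 fell, where 3.64% of all genes were called.

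In HFD+E2 M against HFD M, 5 of 71 rose and 1 fell at the study threshold, where 5.87% of all genes were called (395 higher and 486 lower). Creb3l3 was again among those that rose, at 2.08 ± 0.996 TPM (0.96 ± 0.24, adjusted p = 0.389, edgeR). The others were the droplet proteins Cideb (0.43 ± 0.15), Hsd17b11 (0.42 ± 0.11) and G0s2 (0.67 ± 0.32) and the oxysterol receptor Nr1h3 (0.45 ± 0.16). Agpat5 fell in the fit on counts (-0.42 ± 0.19). Its deposited TPM was 10.03 in HFD+E2 M replicate 1 and 1.33 to 3.56 in the rest of that group, beside 2.91 to 5.86 in HFD M. Without HFD M replicates 2 and 4, Creb3l3, Cideb and Hsd17b11 passed (0.82, 0.41 and 0.40), and G0s2, Nr1h3 and Agpat5 did not. In that fit 3.45% of all genes were called. HFD F against HFD M gave 1 of 73, Ces2e, lower in females (-0.58 ± 0.21), where 3.09% of all genes were called. The interaction gave 2 of 75, Plin4 and G0s2, where 5.18% of all genes were called. Without the libraries with squamous markers these calls were lost, and HFD F against HFD M gave Apoc2, Fabp5 and Creb3l3 higher and Plin4 lower, and the interaction Acsl4. The male comparisons share the HFD M libraries. The genes of these paragraphs were picked for passing the study threshold, after their values were seen.

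The 8 genes were also compared from library to library within groups. After the mean of each group was subtracted from log2 CPM, 23 of 28 pairs had a positive correlation over the 30 libraries, and 8 of 28 had a permutation p (within groups, 2-sided, Benjamini-Hochberg over 108 correlations) under 0.05, and the same share over other genes was not computed. The closest was Cd36 with Dgat1 (Pearson r = 0.67, Spearman rho = 0.68, p = 0.00031, adjusted p = 0.00837, and r = 0.68 without the 2 libraries farthest from the median of Cd36). Plin2 went with Cd36 (r = 0.64, rho = 0.63, p = 0.00048, adjusted p = 0.00864, r = 0.56 without the 2 farthest) and with Apob (r = 0.62, rho = 0.57, p = 0.00047, adjusted p = 0.00864, r = 0.50). Apob and Mttp, the lipoprotein pair, had r = 0.58 (rho = 0.56, p = 0.00229, adjusted p = 0.0247, r = 0.47). Plin3 stood aside, with r between -0.31 and 0.21 to the others.

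The smooth muscle score, the mean log2 CPM of the 9 smooth muscle markers, ran against the same genes. It was negatively correlated within groups with Cd36 (r = -0.70, rho = -0.71, p = 0.00016, adjusted p = 0.00648, r = -0.61 without the 2 farthest), Dgat1 (r = -0.66, rho = -0.69, p = 0.00015, adjusted p = 0.00648, r = -0.60) and Plin2 (r = -0.66, rho = -0.63, p = 0.00018, adjusted p = 0.00648, r = -0.66). Plin3 differed in sign and did not pass (r = 0.36, adjusted permutation p = 0.221). Dgat2 had its only adjusted p under 0.05 among marker scores with the adipocyte score (r = 0.53, rho = 0.54, p = 0.00653, adjusted p = 0.0441, r = 0.42). These values describe libraries that share depth and tissue make-up, and the part of the tissue sampled was not tested.

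**Figure D4:**
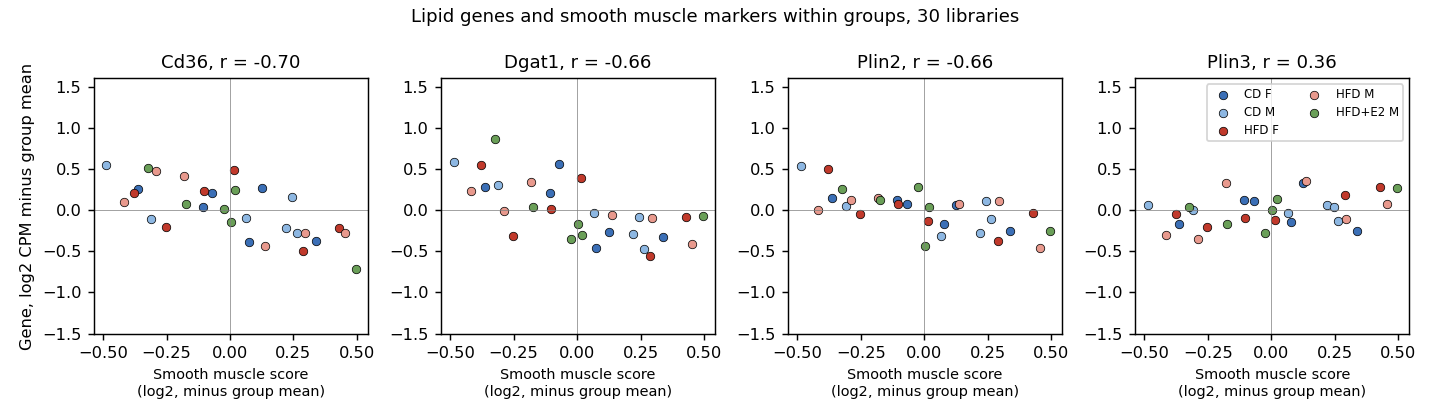
Deviation of Cd36, Dgat1, Plin2 and Plin3 from their group mean (y axis, log2 CPM) against that of the mean of 9 smooth muscle markers (x axis, log2), for 30 libraries coloured by group. Cd36, Dgat1 and Plin2 fall as the score rises (r = -0.70, -0.66 and -0.66), and Plin3 does not (r = 0.36).

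The genes whose within-group pattern was most like each of the 8, among 15223 genes with counts and a mean of at least 1 TPM, were named by the highest Pearson r of log2 CPM over the 30 libraries. Dgat1 had the closest neighbours, Abhd17c (0.95) and Atp6v1b2 (0.94). For Plin3 they were Trpm4 (0.87), Fbxl15 (0.86) and Arf5 (0.85), for Apob Ugdh (0.85), Galnt7 (0.84) and Sprr2a2 (0.83), and for Plin2 Slc6a4 (0.85), Fbxo25 (0.83) and Slc7a7 (0.83). Dgat2 was nearest to Cln6 (0.83), Ppap2c (0.82) and Nlrx1 (0.80), and Cd36 to Mfsd8, Pgap1 and Srsf3 (0.79 each). The lowest likeness was found for Mttp, with 9830147E19Rik (0.77), Pamr1 (0.73) and Gm26944 (0.70), and Fabp2, with Apool (0.70), Tspan3 (0.69) and Rnf141 (0.68), the 2 genes with the fewest counts of the 8. These are descriptions over libraries and carry no test.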

How the data were processed

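RNA was taken from snap-frozen distal colon, and stranded total RNA libraries were made after ribosomal RNA removal, with 6 biological replicates per group. The authors trimmed the reads with Trim Galore, aligned them to mm10 with STAR and counted them per gene with featureCounts. The submitters' processing notes also name bcl2fastq 2.19.1.403. The strand setting of the counting is not given in the sources used here. The deposited count table holds raw counts and the deposited StringTie tables hold TPM, which were used here for levels. The deposited FPKM and coverage (signal) values were not used.

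The 10 genes and the lists of pathway genes and markers were chosen with earlier results of these data known. Counts of the 12 libraries of each comparison (24 vehicle libraries for the interaction) were tested with edgeR 4.0.16 (R 4.3.3; filterByExpr, TMM, robust quasi-likelihood fit without covariates). Fold changes are the first group named against the second. A gene was called at a Benjamini-Hochberg adjusted p under 0.05 over all genes tested, or at the study threshold, an unadjusted p under 0.05 with a log2 fold change beyond 0.4. Exact permutation tests were 2-sided on log2 CPM with a prior count of 2. Intervals and floors of 3 counts cover counting error only or the spread between animals, as named. The fits were tested on simulated data.

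All 10 genes are named. Of the other pathway genes, those past the adjusted threshold were to be named, and for each tested gene the 3 genes with the most similar within-group pattern. 1 of these is not reported here. Marker scores are means of log2 CPM. Alternatives were DESeq2 1.42.0, DESeq2 size factors, 2 other filters on low counts, all 30 libraries in 1 fit, the replicate number as a block, 3 marker scores as covariates, log2 TPM with a pseudocount of 0.1 or 1, and each library left out. Leaving out the 6 libraries with squamous markers was chosen after seeing the data.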

Additional observations from a re-analysis of the deposited data

Results flagged for a closer look

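In 4 of 45 groups of 6 libraries, 1 library stood apart from the other 5, its gap to the next divided by the range of the group, being above Dixon's 95% critical value. Chance flags about 1 in 20 groups. Dgat2 and Dgat1 were both highest in HFD+E2 M replicate 1, at 15.5 TPM with the next library at 5.62 TPM for Dgat2, and at 22.4 TPM with the next at 10.7 TPM for Dgat1. Fabp2 reached 7.67 TPM in HFD F replicate 2, with the next library at 3.895 TPM. Mttp reached 2.37 TPM in CD M replicate 1, with the next at 1.38 TPM.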

How the results depend on the processing

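Of 1264 fold changes of the tested genes under an alternative, 1152 kept their direction and their side of the study threshold, 26 kept their direction and passed it where they had not (14 of these with 1 library left out), and 86 changed sign, 40 of these with 1 library left out. In 81 of the 86 the reported value lay within its standard error of 0, and none of the 86 was past the study threshold in either direction. The other 5 came with the smooth muscle score as a covariate: Dgat1 at -0.38 and Plin2 at -0.21 in CD F against CD M, Dgat1 at -0.049 in HFD M against CD M, and Dgat1 at 0.0804 and Plin2 at 0.00464 in the interaction. The sums of the smooth muscle markers did not overlap between CD F and CD M, so that score separates poorly from sex there. With that score Mttp was also at -0.25 in CD F against CD M and -0.0829 in HFD M against CD M, Dgat1 at 0.0347 in HFD F against CD F, Cd36 at 0.0466, Dgat2 at 0.017, Plin2 at 0.0419 and Plin3 at -0.0409 in HFD+E2 M against HFD M, and Fabp2 at 0.24, Apob at 0.0349 and Mttp at 0.0699 in the interaction. With the squamous score, Dgat1 was at 0.0843 and Plin2 at 0.029 in HFD F against HFD M, Mttp at -0.0393 and Plin3 at -0.0401 for E2, and Fabp2 at 0.036 and Apob at 0.0907 in the interaction. With the adipocyte score, Plin3 was at -0.032 in HFD F against HFD M, -0.00427 in HFD M against CD M and -0.0607 for E2, and Mttp at -0.0169 in HFD F against CD F and -0.041 for E2. Without the 6 libraries with squamous markers, Fabp2 was at 0.26, Dgat1 at 0.00472, Plin2 at 0.0613 and Plin3 at -0.18 in HFD F against HFD M, Mttp at -0.0771 and Plin3 at -0.0361 for E2, and Fabp2 at 0.39 in the interaction. On log2 TPM with a pseudocount of 0.1, with or without the mean of at least 1 TPM, Mttp was at -0.14 in CD F against CD M and -0.38 for E2, and Plin3 at -0.0118 in HFD F against HFD M and -0.12 for E2. With a pseudocount of 1 these were -0.0746, -0.15, -0.0115 and -0.12. Without the filter Mttp was at -0.000405 in HFD F against CD F.

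With 1 library left out, the values that crossed 0 ran in CD F against CD M from -0.27 to 0.10 (Fabp2), -0.13 to 0.0909 (Dgat2) and -0.0246 to 0.0925 (Mttp). In HFD F against HFD M they ran from -0.14 to 0.0878 (Dgat1), -0.00885 to 0.23 (Apob) and -0.0241 to 0.11 (Plin3), and in HFD F against CD F from -0.24 to 0.0152 (Dgat1), -0.0842 to 0.0736 (Mttp) and -0.0241 to 0.15 (Plin2). Plin3 ran from -0.0261 to 0.11 in HFD M against CD M. For E2 they ran from -0.44 to 0.0584 (Dgat2), -0.0917 to 0.0834 (Mttp), -0.12 to 0.0343 (Plin2) and -0.0344 to 0.11 (Plin3), and Fabp2 ran from -0.36 to 0.0223 in the interaction. The cause was not tested.

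By adjusted p, CD F against CD M gave 1 gene, 2 with DESeq2 and 2 with the replicate block (Cd36 at -0.61 and Apob at 0.31), 0 with the squamous score, 0 with the adipocyte score, 0 with all 30 libraries, and 0 to 1 with a library left out. HFD F against CD F gave 0, and 1 (Dgat2) with DESeq2 and 1 (Dgat2, 0.77) with the block. At the study threshold CD F against CD M gave 1, and 1 to 2 with a library left out. HFD F against CD F gave 2, and 3 with the adipocyte score, adding Fabp2 (0.57), where all genes gave 337 higher and 90 lower of 15061. It gave 4 with the squamous score and 4 without the 6 libraries with squamous markers (2 HFD F libraries left), adding Fabp2 (0.73 and 0.81) and Apob (0.51 and 0.48). Over all genes these 2 settings called 181 higher and 177 lower of 15061, and 189 and 184 of 15827. From 0, HFD M against CD M gave 1 (Apob) in both of these and 0 to 2 with a library left out. From 0, HFD F against HFD M gave 1 with the adipocyte score (Cd36, -0.50) and 1 with the smooth muscle score (Cd36, -0.45), and 0 to 1 with a library left out. With these 2 scores all genes gave 204 higher and 136 lower of 15179, and 617 and 241. From 0, HFD+E2 M against HFD M gave 1 with the adipocyte score (Dgat1, -0.42) and 1 with the smooth muscle score (Apob, 0.45), and 0 to 1 with a library left out. From 0, the interaction gave 1 with the smooth muscle score (Cd36, 0.61), where all genes gave 337 higher and 155 lower of 15800.

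The replicate numbers were not shown to pair the libraries: correlations of deviations between same-numbered libraries ran from -0.21 to 0.46. Of the 6 pairs, 5 were over 0.1 in CD F against CD M and 5 in HFD M against CD M, 3 in HFD F against CD F (where the lowest was 0.0299), 3 in HFD+E2 M against HFD M and 2 in HFD F against HFD M, so not all pairs of any comparison were. No comparison had every library correlate best with its own number. The block moved the calls over all genes by adjusted p from 435 to 941 in CD F against CD M. Calls over all genes moved with the setting, from 237 to 941 by adjusted p in CD F against CD M, 1 to 50 in HFD F against HFD M, 0 to 214 in HFD F against CD F, 0 to 25 in HFD M against CD M, 0 to 50 in HFD+E2 M against HFD M, and 0 to 3 in the interaction. At the study threshold the same comparisons gave 1154 to 2253, 337 to 1165, 358 to 1496, 327 to 1056, 508 to 1805, and 332 to 1543. Depth limits Mogat2 and Fabp1, and leaves Fabp2 and Mttp with 14 to 89 counts per library.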
